A study of Mus musculus with 7 samples.

Results

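Gm14430, Gm14434, Gm4724, Gm14431 and Gm8898 are 5 rows of a count table of 23329 gene symbols from a mouse beta-cell line. They were chosen by symbol and selected on their raw counts: each is a predicted zinc finger gene whose counts equal those of another in every library, and 3 of them had the largest fitted decrease with IL1B in earlier results of these data. Their values are therefore described here and not tested. The 5 rows hold 2 distinct measurements: Gm14430, Gm14434 and Gm4724 have 1 series of counts, and Gm14431 and Gm8898 another. Each is given once below, as the Gm14430 set and the Gm14431 set. Among the 19020 rows with any count there are 384 such sets of equal rows, and 4 of them, holding 9 rows, passed the filter on low counts; all 5 members passed. The other tested sets are Gm3317 with Gm3494 and 1700047I17Rik2 with Fam177a.

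RNA came from Beta-TC6, an insulin-secreting line derived from a pancreatic beta-cell tumour of a transgenic mouse. All 7 libraries were wild type and all cells had been synchronised with 10 µM forskolin, which activates adenylyl cyclase, for 1 h; 4 libraries (WT-Veh) had vehicle and 3 (WT-IL1B) had IL1B, interleukin-1 beta, an inflammatory cytokine. The serum given for all libraries was 15%. No source used here gives the dose or duration of IL1B. Nothing says that replicates were separate cultures, so the spread between them may be technical. Libraries held 5335607 to 7513934 counts, of which 3 counts equal 0.395 to 0.557 CPM (counts per 1e6, with TMM-scaled library sizes).

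Zinc finger proteins of this kind bind DNA through a row of C2H2 fingers, short loops held by a zinc ion, and many carry a KRAB domain at their start. The KRAB domain recruits TRIM28 (KAP1), which brings the histone methyltransferase SETDB1 and HP1 proteins to the bound site, and the family is known for silencing transposable elements. Its genes multiply by local duplication, so that young copies lie side by side in clusters and may differ at few or no bases. What these 5 genes bind is not described here.

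The members lie in such a cluster on chromosome 2 of the mouse genome. In the GENCODE annotation of GRCm38, the assembly also called mm10, Gm4724 spans 175422300 to 175435807 on the minus strand and Gm14434 spans 176473278 to 176486783 on the minus strand. Gm8898, now called Zfp966 in RefSeq, spans 175918881 to 175931100 on the minus strand. Gm14431, now Zfp967, spans 176521056 to 176532479 on the plus strand. Each of these 4 genes is protein coding, with a longest coding sequence in 4 exons. Gm14430 was not matched to either annotation, so the sequences of its set are those of Gm14434 and Gm4724.

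Within each set, the genes that could be matched have the same coding sequence. The same coding sequence does not always go with equal counts: 0610010B08Rik and Gm14308, described below, share that of Gm14434 but have other counts. That of Gm14434 (1494 bases) has 0 differences from that of Gm4724, and that of Gm14431 (1455 bases) has 0 differences from that of Gm8898. Between the sets the coding sequences differ by 314 edits, an identity of 79.9%. The stretches below show consecutive finger repeats of 1 gene of each set (coding bases 541 to 725 of Gm14434 and 430 to 614 of Gm14431, from the GENCODE transcripts, 5′ to 3′). Capitals mark the linker that joins a finger to the next, found by its 17-base consensus. Each stretch was taken at the earliest evenly spaced linkers of its own gene, without aligning the genes. Compared position by position the stretches differ at 29 of 185 bases, and whether they are corresponding fingers was not tested.
Gm14434: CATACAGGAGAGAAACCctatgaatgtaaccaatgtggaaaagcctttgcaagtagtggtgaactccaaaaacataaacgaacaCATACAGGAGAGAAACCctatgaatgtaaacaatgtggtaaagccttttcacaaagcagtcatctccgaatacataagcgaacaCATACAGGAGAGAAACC
Gm14431: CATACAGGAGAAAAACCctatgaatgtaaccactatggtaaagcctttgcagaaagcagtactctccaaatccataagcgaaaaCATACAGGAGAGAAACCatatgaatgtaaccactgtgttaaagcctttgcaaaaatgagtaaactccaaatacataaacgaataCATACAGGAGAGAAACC
The linker occurs 12 times in the coding sequence of Gm14434 and 13 times in that of Gm14431, mostly 84 bases apart (10 of 11 and 12 of 12 spacings), and not on the other strand. Among 21877 coding genes, 2.21% hold it in their longest transcript and 0.457% hold it at least 10 times.

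Other annotated genes carry the same coding sequences. Those of Gm14434 and Gm4724 are shared by 7 annotated genes: these 2 with Gm2026, Gm14308, Gm2007, Gm4631 and Gm11007. Of these, the table also has a row for Gm14308 and 1 for Gm2026, under its older symbol 0610010B08Rik. The coding sequence of the Gm14431 set is shared by 4 genes, Zfp966, Zfp967, Zfp968 and Zfp969. Cut into words of 50 bases, all transcript sequence of Gm14434 and of Gm14431 recurs in another annotated gene (100% of words), as does 99.8% for Gm4724 and 90.0% for Gm8898. Over the 24 rows of the cluster with transcripts the share had a median of 87.5%, and over 18 genes of the KRAB corepressor machinery it had a median of 0.436% and reached 35.3%. No source used here says how reads that match several genes were counted, and the level of any single copy is therefore uncertain.

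**Figure D1:**
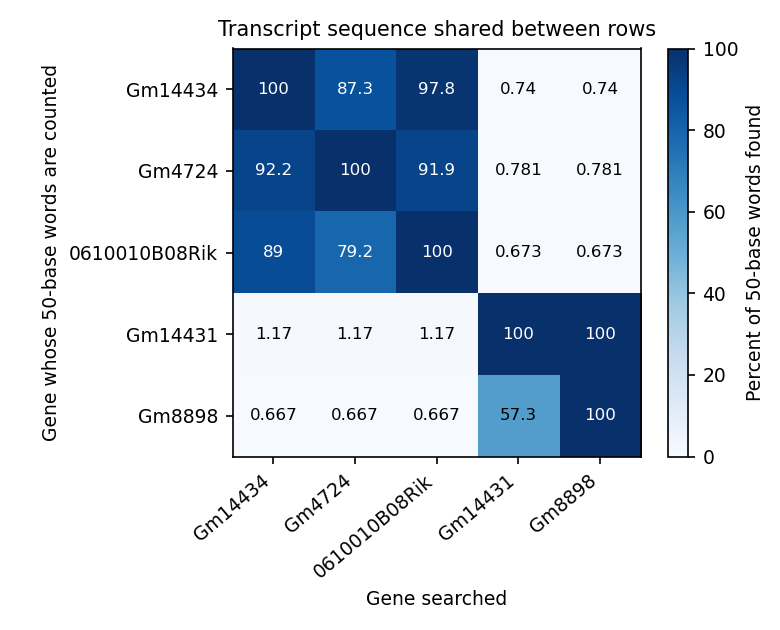
Percent of the 50-base words in all transcripts of 1 gene (vertical axis) found in transcripts of another (horizontal axis). Gm14434, Gm4724 and 0610010B08Rik share 79.2% to 97.85% of their words with each other, while sharing with the Gm14431 set is 0.667% to 1.17% in either direction. All words of Gm14431 recur in Gm8898, while 57.3% of the words of Gm8898 recur in Gm14431.

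The sequence upstream of the genes divides them in the same way. The 145 bases below lie before the transcription start used for each gene's RefSeq promoter (GRCm38.p6, 5′ to 3′ on the gene strand). For Gm4724 they lie before the GENCODE gene but inside the longer RefSeq gene, which spans 175418037 to 175704126. Capitals mark the 11 positions at which the sets differ.
Gm14434, Gm4724 and 0610010B08Rik: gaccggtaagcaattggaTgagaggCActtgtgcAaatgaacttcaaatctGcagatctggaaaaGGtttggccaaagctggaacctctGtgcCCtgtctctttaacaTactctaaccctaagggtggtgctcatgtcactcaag
Gm14431 and Gm8898: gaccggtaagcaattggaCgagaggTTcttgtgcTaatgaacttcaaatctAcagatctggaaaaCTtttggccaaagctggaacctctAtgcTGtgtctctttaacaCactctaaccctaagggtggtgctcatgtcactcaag
The first was found unchanged at chr2:176486855-176486999 (minus strand, Gm14434), chr2:175435883-175436027 (minus strand, Gm4724) and chr2:175965105-175965249 (plus strand, 0610010B08Rik). The second lies at chr2:176520786-176520930 (plus strand, Gm14431) and chr2:175931174-175931318 (minus strand, Gm8898). Over the whole promoter window, from 250 bases before to 50 after the start, Gm14434, Gm4724 and 0610010B08Rik also had 0 differences, as did Gm14431 and Gm8898. Between the sets the whole windows differed by 79 edits. On either strand these windows hold no match to the kB consensus of NF-kB (in 8.46% of 32851 promoters), to TGANTCA, the AP-1 consensus (7.81%), or to TGACGTCA, the cAMP response element (1.79%); each holds CCAAT, found in 37.4% of promoters. The searched letters do not overlap each other, and a match or its lack is a description of this window.

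Counts of the Gm14430 set were low and lay lower with IL1B than with vehicle. The 4 vehicle libraries had 24, 27, 16 and 15 counts, or 3.16, 4.23, 2.82 and 2.79 CPM. The IL1B libraries, by the table's own numbers 1 to 3, had 0, 8 and 0 counts, or 0, 1.33 and 0 CPM. Every IL1B library was below every vehicle library, as were those of 8.83% of the 12480 tested rows, and since these rows were chosen with this in view nothing is read from it. In bulk RNA, fewer cells that express a gene and less RNA per cell cannot be told apart.

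The group means were 3.25 ± 0.674 CPM with vehicle (SD, n = 4) and 0.443 ± 0.768 CPM with IL1B (SD, n = 3). Summed over libraries, 82 counts stood against 8, which makes IL1B 7.70-fold lower (95% counting interval 3.73 to 18.4); intervals here cover counting error only. The fitted log2 fold change was -2.88 (SE 0.58, edgeR). Its size rests on the second IL1B library, which holds all 8 counts: without it the IL1B group is at 0 counts and the set is at least 14.0-fold lower, against a floor of 3 counts over that group. The 3 rows passed the low-count filter through the vehicle libraries alone.

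As a description of the spread within a group, the chi-square of the set's counts per degree of freedom was 0.851 over the vehicle libraries. In 2270 tested rows between 2 and 10 CPM in vehicle, the same value had a median of 0.954. With IL1B all 8 counts of the set lay in 1 library, and its chi-square per degree of freedom over the IL1B libraries was 8.51. The counting interval of the set's fold leaves out that spread. A row with both a library at 0 and one of at least 15 counts, as in this set by its choice, was also found in Gm14306, 1 of the 17 neighbouring zinc finger rows that reach 15 counts. Over all rows, 41 of the 12487 that reach 15 counts also had a library at 0 (0.328%), and nothing is read from 1 row.

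The row 0610010B08Rik, which carries the same coding sequence, lay the other way. Its vehicle libraries had 20, 19, 63 and 14 counts (2.63, 2.98, 11.1 and 2.60 CPM) and its IL1B libraries 82, 35 and 88 (11.9, 5.82 and 14.8 CPM). The third vehicle library stood with the IL1B libraries, and the groups overlapped. The row rose from 4.83 ± 4.19 CPM (SD, n = 4) to 10.9 ± 4.61 CPM (SD, n = 3), which is 2.33-fold with an edgeR adjusted p of 0.0427 (log2 fold change 1.22, SE 0.38).

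That call is close to the threshold. It was lost without vehicle library 1, 2 or 4 or without IL1B library 1 or 3, with adjusted p by edgeR up to 0.239 over single libraries left out, and DESeq2 gave an adjusted p of 0.41. Its vehicle libraries had a chi-square per degree of freedom of 22.2, a value reached by 0.176% of the 2270 rows between 2 and 10 CPM. Gm14308, the other row with this coding sequence, had 0 counts in every library.

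**Figure D2:**
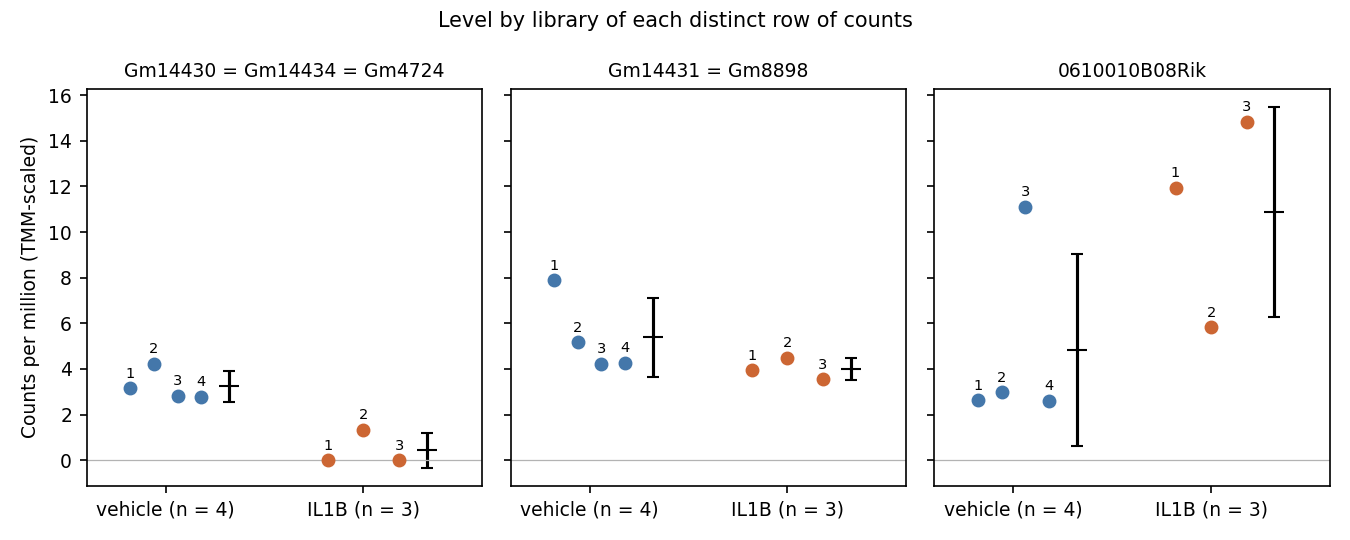
Level in each library (dots, numbered as in the table, CPM on the vertical axis) for the 2 distinct member rows and 0610010B08Rik, with mean ± SD beside each group. In the Gm14430 set all IL1B libraries lie below all vehicle libraries, the Gm14431 set overlaps, and in 0610010B08Rik the third vehicle library lies among the IL1B libraries.

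Set side by side, the rows of this coding sequence took different shares in different libraries. The Gm14430 set, counted once, made up 54.5%, 58.7%, 20.3% and 51.7% of its sum with 0610010B08Rik in the vehicle libraries (exact 95% intervals 38.8 to 69.6, 43.2 to 73.0, 12.04 to 30.8 and 32.5 to 70.6). In the second IL1B library it made up 18.6% (8.39 to 33.4). In IL1B libraries 1 and 3 it was 0 of 82 and 0 of 88 counts, which allows a share of up to 3.66% and 3.41% by a limit of 3 counts, and of up to 4.40% and 4.11% by the exact interval. The intervals of the third vehicle library and the second IL1B library overlap.

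Summed over these rows, the groups overlapped. With the set counted once, the sums were 44, 46, 79 and 29 counts with vehicle and 82, 43 and 88 with IL1B, which is 8.08 ± 3.98 CPM (SD, n = 4) and 11.3 ± 3.89 CPM (SD, n = 3). The fitted log2 fold change was 0.51 (SE 0.27), above 0. With each of the 3 equal rows added, the sums were 14.6 ± 3.89 and 12.2 ± 2.53 CPM, with a log2 fold change of -0.25 (SE 0.18) and groups that again overlapped. No source used here says which sum counts each read once, so both are given. They were chosen after the values were seen and have no test, and the part of read assignment among copies in the low values of the set was not tested.

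**Figure D3:**
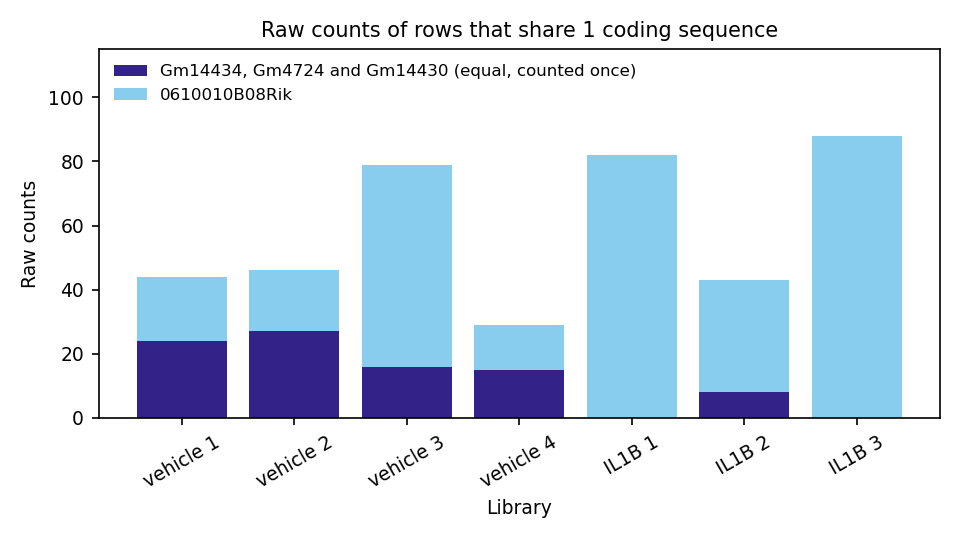
Raw counts (vertical axis) by library of the Gm14430 set, counted once (dark), and of 0610010B08Rik (light), stacked. The dark part is 15 to 27 counts in the vehicle libraries and 0, 8 and 0 in the IL1B libraries, while the height of the stack, 29 to 88 counts, overlaps between the groups.

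The Gm14431 set, with its own coding sequence, had smaller differences between the groups. Its vehicle libraries had 60, 33, 24 and 23 counts (7.90, 5.17, 4.23 and 4.27 CPM) and its IL1B libraries 27, 27 and 21 (3.93, 4.49 and 3.54 CPM). The first vehicle library was the highest of the 7, and the second IL1B library was above vehicle libraries 3 and 4, so the groups overlapped. Means were 5.39 ± 1.73 CPM with vehicle (SD, n = 4) and 3.99 ± 0.475 CPM with IL1B (SD, n = 3). The fitted log2 fold change was -0.47 (SE 0.24), and -0.20 without the first vehicle library. Summed over libraries, 140 counts stood against 75, 1.40-fold lower with IL1B (95% counting interval 1.05 to 1.88). Its vehicle libraries had a chi-square per degree of freedom of 3.67, reached by 3.70% of the 2270 rows between 2 and 10 CPM. The interval covers counting error only and leaves out that spread. None of the set's libraries was at 0.

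Most other zinc finger rows of the cluster did not pass the test. The 21 listed rows, with the members, lie between 175057954 and 178078425 on chromosome 2 (RefSeq, GRCm38.p6), and 16 of them passed the filter; the largest of the other 5 had 48 counts in all. Of the 16, 1 rose (0610010B08Rik), 1 fell (Gm14403) and 14 did not pass by edgeR, beside 7.76% of all tested rows that rose and 3.25% that fell. Their median log2 fold change was -0.21, against -0.0087 over all tested rows, and 13 of the 16 lay below 0. Most rows of the cluster share much of their sequence with other genes, so the 16 are not separate measurements. The share below 0 over all tested rows is not given here, and nothing is read from the 13 about the cluster. Gm14403, annotated as a zinc finger coding gene by GENCODE and as a non-coding RNA by RefSeq, fell from 9.97 ± 1.40 CPM (SD, n = 4) to 6.91 ± 1.39 CPM (SD, n = 3), 1.46-fold (edgeR adjusted p = 0.0487). Its groups overlapped, and its call was lost with DESeq2, with limma-voom and without any 1 of vehicle libraries 1, 2 and 3 or IL1B libraries 1 and 3 (edgeR adjusted p up to 0.187).

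The 3 rows of the list with the highest mean CPM over all 7 libraries did not pass. Gm14326 stood at 38.4 ± 3.97 CPM with vehicle (SD, n = 4) and 33.2 ± 1.10 CPM with IL1B (SD, n = 3; edgeR adjusted p = 0.172). Gm14325 stood at 31.6 ± 0.862 and 28.2 ± 3.29 CPM (edgeR adjusted p = 0.33), and Etohi1, now Zfp971, at 16.5 ± 2.89 and 14.8 ± 3.61 CPM (edgeR adjusted p = 0.667). The row 100043387 (Gm14305), whose coding sequence differs from that of Gm14434 at 7 bases, had 36, 32, 29 and 22 counts with vehicle and 38, 16 and 19 with IL1B; its groups overlapped and it did not pass (log2 fold change -0.30, SE 0.25, edgeR adjusted p = 0.538).

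**Figure D4:**
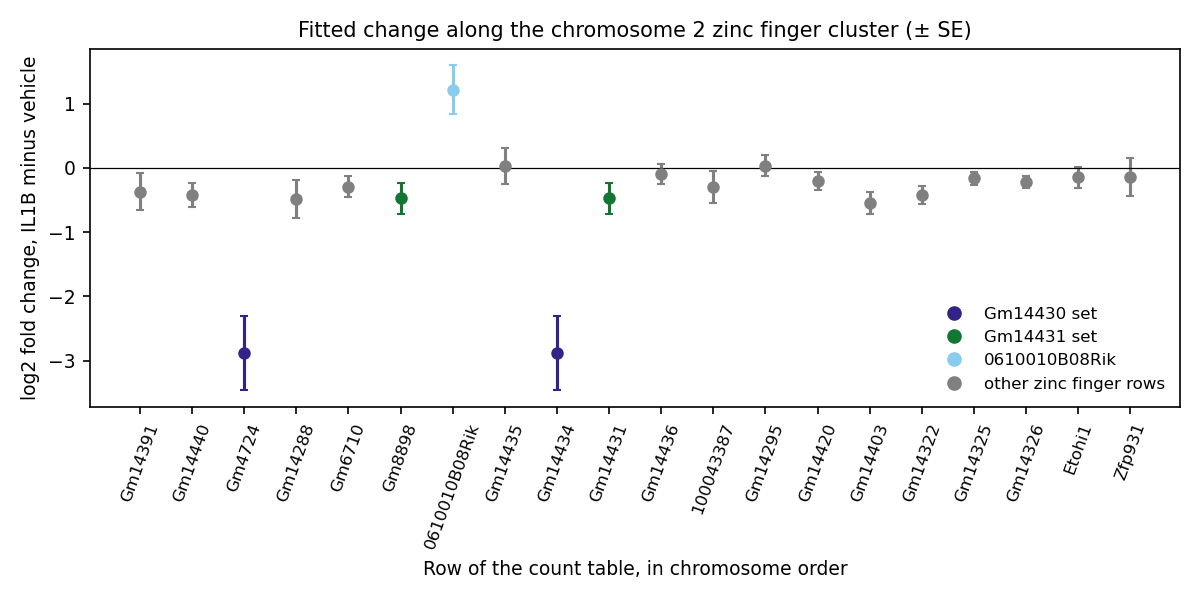
Fitted log2 fold change of IL1B against vehicle (vertical axis, ± SE) for the tested zinc finger rows of chromosome 2 in chromosome order (horizontal axis). Gm4724 and Gm14434, which are 1 measurement, lie at -2.88 and 0610010B08Rik at 1.22, while the remaining rows lie between -0.55 and 0.03.

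A list of 19 genes covers the machinery that KRAB zinc finger proteins work through. All were tested, and 2 rose, 0 fell and 17 did not pass by edgeR, beside 7.76% of all tested rows that rose and 3.25% that fell, so the count is not read as particular to the list; 3 had an unadjusted p under 0.05, DESeq2 and limma-voom also gave 0 lower, and the median log2 fold change was 0.0095. Chd4, the remodelling ATPase of the NuRD complex, rose from 351 ± 23.3 CPM (SD, n = 4) to 531 ± 62.2 CPM (SD, n = 3), 1.51-fold (edgeR adjusted p = 5.2e-06). Uhrf1, which guides DNA methylation to newly copied DNA, rose from 142 ± 6.44 to 187 ± 4.69 CPM, 1.32-fold (edgeR adjusted p = 6.5e-05). Neither gene's groups overlapped, as in the 12.1% of tested rows with all IL1B libraries above all vehicle libraries. Sumo2, a modifier protein attached to TRIM28, stood at 410.03 ± 18.6 and 389 ± 50.02 CPM (edgeR adjusted p = 0.593), and Cbx5, which encodes an HP1 protein, at 343 ± 31.2 and 329 ± 9.10 CPM (edgeR adjusted p = 0.644).

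Of 340 rows named Zfp and a number, 302 were tested, and 17 rose and 10 fell by edgeR, with a median log2 fold change of -0.05. Over all tested rows 7.76% rose and 3.25% fell, and nothing is read from the count about zinc finger genes. Zfp295 rose 1.59-fold, from 26.8 ± 0.651 CPM (SD, n = 4) to 42.8 ± 4.35 CPM (SD, n = 3; edgeR adjusted p = 1.9e-05), and Zfp607 rose 2.30-fold (edgeR adjusted p = 7.2e-05). Zfp395 fell 1.54-fold (edgeR adjusted p = 0.0012) and Zfp324 fell 1.37-fold (edgeR adjusted p = 0.006). None of these 4 rows belongs to the chromosome 2 list, and in each the groups did not overlap (over all tested rows 12.1% had every IL1B library above and 8.83% every one below).

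Among 12474 other tested rows of at least 1 CPM, those most like the Gm14430 set over the 7 libraries were Aacs (Pearson r of log2 CPM 0.987), Ppm1f (0.983), Slc18a3 (0.980), Tspyl4 (0.978) and Ttc38 (0.976). The value describes these libraries only: apart from Ttc38, whose groups overlapped, the points fall into the treatment groups. It does not measure size: by edgeR these rows were 1.11-fold (Ppm1f) to 1.39-fold (Slc18a3) lower with IL1B, against a fitted 7.38-fold for the set. Ppm1f (edgeR adjusted p = 0.29) and Ttc38 (edgeR adjusted p = 0.228) did not pass. The calls of Aacs, Slc18a3 and Tspyl4 were lost without IL1B library 1 or 3, and that of Tspyl4 also in other settings. The second IL1B library is the highest of its group in each of these rows. They were picked for likeness to a set whose IL1B counts all lie in that library, so nothing is read from it. By the same correlation 0610010B08Rik stood at -0.780. The lowest of the 12474 rows was Whamm at -0.985, and nothing is read from the value of 0610010B08Rik about the copies.

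The libraries carried the marks of their labels. Nfkbia, which encodes the NF-kB inhibitor IkBa, rose 15.4-fold with IL1B (edgeR adjusted p = 5.6e-19), Cxcl1 went from 2 counts over the vehicle libraries to at least 990 in each IL1B library, Pdx1 fell 1.48-fold (edgeR adjusted p = 3.0e-07) and Ins2 stood at 21183 ± 1599 CPM with vehicle (SD, n = 4) and 22372 ± 715 CPM with IL1B (SD, n = 3). The 8 beta-cell markers summed to 34083 to 39741 CPM with vehicle and 37947 to 39380 with IL1B; 2 of the 8, Pdx1 and Mafa, fell and 0 rose by edgeR. The 4 markers of other endocrine cells summed to 567 to 629 and 530 to 584 CPM. The 4 leukocyte markers reached 3.35 CPM, the 4 stromal and endothelial markers 6.15 CPM, and the 4 exocrine and duct markers 1.496 CPM, with Prss1 and Cpa1 at 0; none of the 4 tested markers of these 4 other lists passed by edgeR.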

How the data were processed

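Polyadenylated RNA of 7 libraries was measured. Gene-level raw counts, whole numbers without normalization, were deposited by the authors as 1 table. Per the submitters' processing notes, the build was mm10, and the tools, named for the series without their roles, include R 4.1.0, STAR, RSEM and HOMER. No source used here gives the counter, annotation, strand setting or treatment of multiply matching reads. Vehicle columns matched titles; IL1B columns, numbered 1 to 3 against titles 1, 3 and 4, were assigned to the group only.

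All rows were fitted with edgeR 4.0.16 under R 4.3.3 (TMM, filterByExpr, quasi-likelihood F test over all 7 libraries, no covariate, Benjamini-Hochberg adjusted p under 0.05), which tested 12480 rows. The fit was tested on simulated data. The SE of a log2 fold change is its size divided by the root of the F statistic. Ratios of summed counts use scaled library sizes and exact intervals. The alternatives tried were scaling by RLE, by upper quartile or by total count, other filters, DESeq2 1.42.0, limma-voom (limma 3.58.1), equal rows kept once, a prior count of 2 for fold changes, and each library left out. Leaving out the second library of each group, and the summed copies, were added after seeing the data.

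Members and lists were chosen with earlier results of these data known. The neighbour list rests on symbols placed on chromosome 2 by RefSeq, without the planned search of protein sequences, which were not used here. Named were all members; in the neighbour and corepressor lists, rows past the threshold (up to 6 each) and the 3 most abundant by mean CPM over all libraries; 2 Zfp rows in each direction with the smallest adjusted p; the 5 rows most like the Gm14430 set; and Nfkbia, Cxcl1, Ins2 and Pdx1. The rows 0610010B08Rik, Gm14308, Gm14306, 100043387 and Mafa were described further after their values were seen.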

Additional observations from a re-analysis of the deposited data

Results flagged for a closer look

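Dixon's test was run on the vehicle libraries of 27 named rows and singled out 1 library in each of 3 rows. About 1 in 20 rows, or 1.35 here, would be singled out by chance if all rows were independent. The 27 rows include all 5 members, which hold 2 distinct measurements, so 1.35 is somewhat too high. Many of the rows were also chosen by their values in these same libraries, so the rate of 1 in 20 may not hold for them. In 0610010B08Rik the third vehicle library stood at 11.1 CPM, against 2.60 to 2.98 in the others. In Sumo2 the second vehicle library stood at 438 CPM, against 398 to 402 in the others. In Zfp324 the first vehicle library stood at 21.2 CPM, against 23.6 to 24.0 in the others.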

How the results depend on the processing

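The log2 fold change of the Gm14430 set (-2.88) was -4.01 with limma-voom and -7.37 to -2.25 with single libraries left out; it was -7.22 without the second library of each group. With IL1B library 2 left out the IL1B group is at 0, so -7.37 and -7.22 depend on the prior count. The sum with 0610010B08Rik gave 0.51 with the set counted once, the opposite sign, and -0.25 with all 3 rows. The Gm14431 set stayed within its spread in all 17 alternatives (-0.57 to -0.20 with single libraries left out). Of neighbouring rows, 0 rose and 0 fell with DESeq2, 0 fell with limma-voom, 2 fell with total-count scaling and 3 fell when each group's second library was left out, as did 1 corepressor gene; with single libraries left out 0 to 1 rose and 0 to 1 fell. Of Zfp rows, 5 fell with DESeq2, and 11 to 19 rose (fewest without IL1B library 2 or 3) and 5 to 14 fell with single libraries left out (5 or 6 where library 1 or 3 of either group was omitted). Over all rows, 769 to 1128 rose and 252 (without IL1B library 3) to 589 fell with single libraries left out, and 676 fell without the second library of each group. The log2 fold changes of Etohi1 (-0.34 to 0.0185) and Sumo2 (-0.15 to 0.0238) turned above 0 without IL1B library 2, and that of Sumo2 (0.0577) also without the second library of each group; neither gene had passed. The cause of these shifts was not tested.

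No paired analysis was possible because the numbers of the IL1B columns do not match those of the titles. Depth limits the members: at these totals 3 counts equal 0.395 to 0.557 CPM, near the level of the Gm14430 set with IL1B, and a lower level was not detectable.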
